A study of Mus musculus with 46 samples.

Results

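Desert hedgehog (Dhh) and 6 further genes of its signalling pathway, Ptch1, Smo, Gli1, Gli2, Gli3 and Hhip, were followed by gene symbol through 46 RNA sequencing libraries of whole mouse fetal gonads. These 7 genes were taken from a table of 33331 gene rows, and all 7 were present and passed the expression filter in every comparison. The gonad pairs came from E12.5 embryos and were made into poly(A)-selected libraries. The study mutated Enh13, a remote enhancer of Sox9, a gene needed for testis development. Its title states that a 1-nucleotide insertion there lets XX mice be born as males. The XX groups were 1bp-ins-hom (n = 5), 3bp-del-hom (n = 5), 3bp-12bp-del-hom (n = 5), 1bp-ins-het (n = 3), 3bp-del-het (n = 3) and WT (n = 3), where hom and het are the homozygous and heterozygous Enh13 genotypes, ins and del an insertion and a deletion, and WT the wild type. The XY groups carried the same genotypes with the same numbers, except that XY 3bp-12bp-del-hom had 3 libraries. The labels do not say what the 3bp-12bp-del genotype combines, and they give neither the strain nor the number of founder lines. They also do not say that replicates are separate animals, so p-values measure only the spread between these libraries, which may be partly technical.

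Hedgehog ligands are secreted proteins. Without ligand, the receptor Patched 1 (Ptch1) keeps the membrane protein Smoothened (Smo) inactive; ligand binding releases Smoothened, which turns the Gli transcription factors towards activation. Gli1, Ptch1 and Hhip, the last a cell-surface protein that binds and sequesters ligand, are themselves transcribed in response to the signal and so serve as its readouts. In the fetal testis, Sertoli cells, the somatic cells of the cords, make Dhh, and cells of the interstitium outside the cords receive it. Mouse fetal Leydig cells, the steroid-producing cells of that interstitium, need Dhh to form in normal numbers.

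Each gene was placed on mm10 through the GENCODE M21 annotation. Dhh lies on chromosome 15 (98891152 to 98898540, minus strand), Ptch1 on chromosome 13 (63508328 to 63573598, minus strand) and Smo on chromosome 6 (29735503 to 29761365, plus strand). Gli1 lies on chromosome 10 (127329882 to 127341974, minus strand), Gli2 on chromosome 1 (118834132 to 119053619, minus strand), Gli3 on chromosome 13 (15463235 to 15730026, plus strand) and Hhip on chromosome 8 (79965851 to 80058006, minus strand). The promoter windows of the ligand and of the receptor-side readouts Ptch1 and Hhip are shown because these 3 genes parted ways in the XX mutants. They are 300 bases each, from RefSeq on GRCm38.p6, at chr15:98898491-98898790, chr13:63565686-63565985 and chr8:80057959-80058258, all minus strand and written 5′ to 3′ along the gene. Capitals mark each match, on either strand, to CCACCC, the core of the motif bound by Gli factors.
Dhh: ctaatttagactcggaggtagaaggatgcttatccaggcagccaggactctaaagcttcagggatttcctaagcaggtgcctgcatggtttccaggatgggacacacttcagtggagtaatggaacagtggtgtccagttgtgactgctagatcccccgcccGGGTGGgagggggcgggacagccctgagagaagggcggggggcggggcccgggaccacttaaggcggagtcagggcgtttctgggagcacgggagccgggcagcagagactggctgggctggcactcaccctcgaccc
Ptch1: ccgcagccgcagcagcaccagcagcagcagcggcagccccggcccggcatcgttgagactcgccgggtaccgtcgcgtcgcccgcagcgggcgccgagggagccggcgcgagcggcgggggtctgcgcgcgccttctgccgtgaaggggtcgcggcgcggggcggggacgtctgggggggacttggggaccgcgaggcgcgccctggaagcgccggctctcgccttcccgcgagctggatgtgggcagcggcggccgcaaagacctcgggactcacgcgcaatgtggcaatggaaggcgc
Hhip: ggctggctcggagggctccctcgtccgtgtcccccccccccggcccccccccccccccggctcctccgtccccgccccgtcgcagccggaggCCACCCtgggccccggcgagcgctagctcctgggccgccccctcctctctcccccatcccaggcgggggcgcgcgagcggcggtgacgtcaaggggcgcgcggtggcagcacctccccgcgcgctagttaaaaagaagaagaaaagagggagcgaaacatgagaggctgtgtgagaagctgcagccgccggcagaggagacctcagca
The Dhh window held 1 match and the Hhip window 1, while the Ptch1 window held 0. The Dhh and Hhip windows span the 5′ end of the gene as placed above. The Ptch1 window lies inside the gene, away from its 5′ end at 63573598, so the 0 covers that 1 start only. The 6-letter core is common, found in 31.5% of the 32851 mouse promoter windows of this length. The longer Gli motif GACCACCCA, searched on both strands, was in 0.253% of those windows and in 0 of the 6 windows available for these genes, which do not include Gli1. These matches describe letters in the windows, and no binding was measured.

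The libraries held 29909102 to 46150388 estimated counts each. The X- and Y-linked transcripts matched the sex label in all 46. Sox9, the target of the mutated enhancer, stood at 136 to 266 CPM (estimated counts scaled to a common library size) in the 15 XX homozygous libraries, against 7.84 to 14.4 CPM in the 9 XX wild-type and heterozygous libraries, and at 84 to 323 CPM in the 22 XY libraries. A few libraries stood apart from their groups. XX 1bp-ins-hom replicate 5 had the XX group's highest summed level of the 15 Sertoli markers, 1930 TPM (a length-scaled level), against 330 to 981 TPM over the other XX homozygous libraries, and a summed level of the 10 fetal Leydig markers of 655 TPM, the highest of all 46. XY WT replicate 3 had 163 TPM over the 8 markers of mesonephros, the neighbouring kidney tissue, against 10.8 and 12.8 TPM in its fellows, and the lowest Sertoli sum of the XY libraries, 701 TPM. XX 3bp-del-hom replicate 4 had 88.8 TPM over the mesonephros markers, against 13.5 to 18.1 TPM in its fellows. XX WT replicate 1 had 149 TPM over the 8 adrenal markers, against 6.25 and 6.7 TPM in the other XX WT libraries. Their part in the results was not tested beyond leaving each library out in turn, and calls that change without them are given with and without them. Group means, and the shares and scale drawn from them, keep all libraries. Whole gonads were sequenced, so fewer cells of a type and less RNA per cell cannot be told apart.

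In wild-type gonads, the ligand and its readouts were far higher in XY than in XX, while Smo and Gli3 were close to level. Dhh had 199, 168 and 74.9 CPM in XY WT, against 1.71, 1.23 and 0.933 CPM in XX WT. Every XY WT library lay well above every XX WT library, and the XY WT library with the lowest Dhh was replicate 3, which carried the mesonephros markers. The difference was 6.81 ± 0.48 on the log2 scale (edgeR quasi-likelihood fit, ± SE, adjusted p = 0.000594), and 7.12 ± 0.18 without that library. Adjusted p-values are Benjamini-Hochberg values over all genes tested, and a gene counts as called when its value is under 0.05.

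Hhip had 42.3, 17.7 and 29.1 CPM in XY WT, against 2.41, 2.25 and 2.43 CPM in XX WT, a log2 fold change of 3.64 ± 0.33 (adjusted p = 0.00121). Gli1 had 45.6, 44.3 and 46.8 CPM in XY WT, against 5.98, 5.53 and 4.14 CPM in XX WT (3.12 ± 0.15, adjusted p = 0.000184). Ptch1 had 273, 186 and 247 CPM in XY WT, against 50.9, 46.4 and 46.3 CPM in XX WT (2.29 ± 0.15, adjusted p = 0.000468). These 3 readouts did not overlap between the 3 XY WT and the 3 XX WT libraries. Here and below, the share of all genes that also lack such overlap was not counted. Gli2, which acts mainly as the activator that starts the response, also rose, with 96.0, 82.5 and 95.1 CPM in XY WT, against 36.5, 44.4 and 42.4 CPM in XX WT (1.14 ± 0.11, adjusted p = 0.0013). Smo, the signal transducer, averaged 257 ± 1.95 CPM in XY WT and 255 ± 27.8 CPM in XX WT (SD, n = 3 each; log2 fold change 0.00, adjusted p = 0.989). Gli3, known mainly as the pathway's repressor, averaged 83.4 ± 24.2 CPM in XY WT and 79.4 ± 4.07 CPM in XX WT (0.06 ± 0.19, adjusted p = 0.857), with the highest value, 111 CPM, again in XY WT replicate 3. In all, 5 of the 7 genes were called higher in XY and 0 lower, where 5.10% of the 15730 genes tested were called higher and 5.94% lower. All 5 calls held with any 1 of the 6 libraries left out, while the number of all genes called was 1738 with XY WT replicate 3 and 6937 of 16015 without it.

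**Figure D1:**
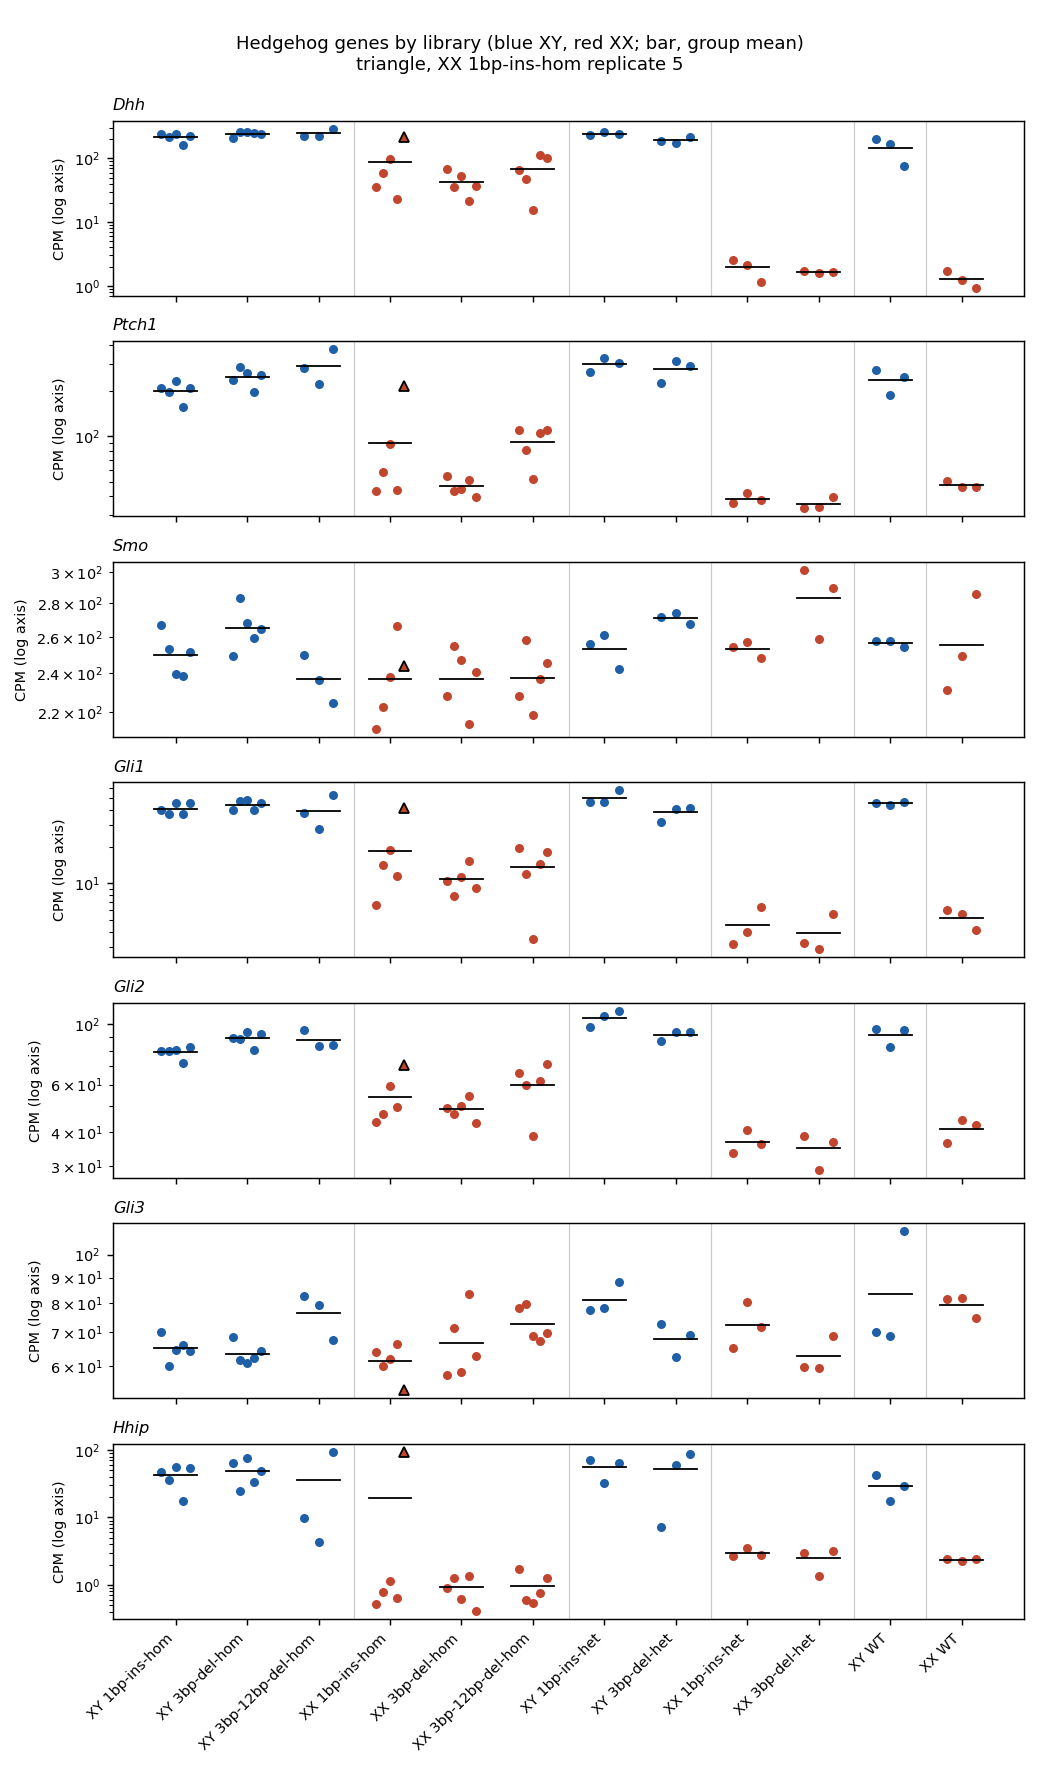
CPM of the 7 Hedgehog genes (log axes, 1 panel each) in all 46 libraries by group, with XY in blue, XX in red, bars at the group means and the triangle for XX 1bp-ins-hom replicate 5. Dhh in the XX homozygotes (15.3 to 216 CPM) stands between XX wild type and XY, while Hhip in all but 1 of the XX homozygous libraries lies at or under 1.73 CPM.

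In the XX homozygotes, Dhh was switched on in every library, but its readouts moved unevenly against XX WT. Gli1 rose in part, Ptch1 was called higher in 1 genotype, and Hhip was called lower in 2 genotypes. Dhh had 35.6, 59.2, 99.0, 23.1 and 216 CPM in XX 1bp-ins-hom. It had 68.1, 35.9, 53.7, 21.6 and 36.3 CPM in XX 3bp-del-hom and 64.7, 46.7, 15.3, 114 and 103 CPM in XX 3bp-12bp-del-hom, against at most 1.71 CPM in XX WT. All 15 libraries lay above all XX WT libraries, and within each genotype the levels spread several-fold. The log2 fold changes against XX WT were 6.07 ± 0.99 (adjusted p = 0.00412), 5.04 ± 0.52 (adjusted p = 0.000301) and 5.73 ± 0.90 (adjusted p = 0.00656) in the order of genotypes above. The group means were 67.0, 33.4 and 53.3 times that of XX WT. These 3 calls held with any 1 library left out.

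Gli1, the most direct readout, had 6.60, 14, 18.9, 11.3 and 41.8 CPM in XX 1bp-ins-hom, against 4.14 to 5.98 CPM in XX WT. It rose by 1.84 ± 0.58 (adjusted p = 0.0448), and by 1.31 ± 0.34 without replicate 5 (adjusted p = 0.0192). That call was lost without replicate 2 or 3 of the mutants or without any 1 XX WT library (adjusted p = 0.0614 to 0.142), with no expression filter (adjusted p = 0.0839) and with limma on log2(TPM + 1) (1.09, adjusted p = 0.0649). In XX 3bp-del-hom Gli1 had 10.3, 7.86, 11.2, 15.3 and 9.07 CPM, no library overlapping XX WT, and rose by 1.04 ± 0.22 (adjusted p = 0.00336). In XX 3bp-12bp-del-hom it had 19.5, 11.9, 3.45, 14.4 and 18.1 CPM. Replicate 3, the library with the least Dhh, fell under XX WT, and Gli1 was not called (1.39 ± 0.52, adjusted p = 0.0898) unless that library was left out (1.63 ± 0.20, adjusted p = 0.000539).

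Ptch1, which is both receptor and readout, differed between the genotypes. It had 111, 81.3, 52.0, 106 and 111 CPM in XX 3bp-12bp-del-hom, all above the 46.3 to 50.9 CPM of XX WT, and rose by 0.96 ± 0.25 (adjusted p = 0.0272). This call was lost without replicate 4 or 5 or any 1 XX WT library (adjusted p = 0.0628 to 0.0965), and with no expression filter (adjusted p = 0.0557). In XX 3bp-del-hom Ptch1 had 54.4, 43.7, 44.7, 51.3 and 39.8 CPM, overlapping XX WT, with a log2 fold change of -0.04 ± 0.10 (adjusted p = 0.795). With the trend of fold change on gene length removed this value was 0.40 (adjusted p = 0.0198). In XX 1bp-ins-hom it had 43.6, 57.6, 88.3, 44.2 and 216 CPM and was not called (0.93 ± 0.56, adjusted p = 0.245; 0.31 ± 0.25 without replicate 5, adjusted p = 0.376). Between the mutants themselves, Ptch1 was higher in XX 3bp-12bp-del-hom than in XX 3bp-del-hom by 0.97 ± 0.20 (adjusted p = 0.00614), with 1 library overlapping, while Dhh did not differ beyond its spread (0.67 ± 0.53, adjusted p = 0.391). Long genes as a whole had higher fold changes in that comparison (Spearman rho 0.507 over 15382 genes). Ptch1 is among them, at the 96.7th percentile of length, so part of its difference may follow that trend.

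Hhip went the other way. It had 0.91, 1.29, 0.63, 1.36 and 0.415 CPM in XX 3bp-del-hom and 1.73, 0.602, 0.534, 0.754 and 1.26 CPM in XX 3bp-12bp-del-hom, against 2.41, 2.25 and 2.43 CPM in XX WT. In CPM, all 10 of these mutant libraries lay under every XX WT library. In TPM the groups overlapped, at 0.06 to 0.45 in 3bp-del-hom and 0.09 to 0.63 in 3bp-12bp-del-hom, against 0.43 to 0.45 in XX WT. Hhip is a long transcript, at the 93.3th percentile, and long genes as a whole had lower fold changes in both comparisons (Spearman rho -0.477 and -0.211). The fall was 1.35 ± 0.34 in 3bp-del-hom (log2 fold change -1.35, adjusted p = 0.00803) and 1.25 ± 0.36 in 3bp-12bp-del-hom (log2 fold change -1.25, adjusted p = 0.0286). In XX 1bp-ins-hom Hhip had 0.524, 0.775, 1.14 and 0.641 CPM in replicates 1 to 4 and 93.9 CPM in replicate 5, above the highest XY library at 92.3 CPM. With all 5 libraries it was not called (3.05 ± 2.06, adjusted p = 0.296), and without replicate 5 it was called lower (-1.58 ± 0.28, adjusted p = 0.00312). The levels are low: 14 to 61 estimated counts per library in XX 3bp-del-hom and 78 to 93 in XX WT. The 3bp-12bp-del-hom call was lost without replicate 2 or 4 or any 1 XX WT library (adjusted p = 0.0584 to 0.0763). Both calls were lost in 1 fit over all 12 groups, which shares its estimate of spread with XY and gave SEs of 1.30 and 1.31 (adjusted p = 0.454 and 0.524).

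The remaining effectors moved little. Smo was not called in any XX homozygote against XX WT (-0.09, -0.11 and -0.08 on the log2 scale in 1bp-ins-hom, 3bp-del-hom and 3bp-12bp-del-hom), though limma on log2(TPM + 1) called it lower in 1bp-ins-hom (-0.32, adjusted p = 0.0111) and 3bp-del-hom (-0.34, adjusted p = 0.00494). Under limma, fold changes over all genes were shifted down too, with medians of -0.19 in 1bp-ins-hom and -0.21 in 3bp-del-hom. It called 4818 of 14025 genes lower and 760 higher in 1bp-ins-hom, and 6067 of 13962 lower and 1305 higher in 3bp-del-hom. Gli2 had 49.4, 46.7, 50.1, 54.4 and 43.3 CPM in XX 3bp-del-hom, overlapping XX WT at its lower end, and was called higher by 0.24 ± 0.09 (adjusted p = 0.0393). That call was lost without replicate 1, 2 or 3 of the mutants or replicate 1 or 3 of XX WT (adjusted p = 0.0524 to 0.163) and in 1 fit over all 12 groups (adjusted p = 0.096). Limma on log2(TPM + 1) put Gli2 at -0.07 (adjusted p = 0.588), where its median over all genes was -0.21. Gli2 averaged 54 ± 11 CPM in XX 1bp-ins-hom and 59.7 ± 12.4 CPM in XX 3bp-12bp-del-hom (SD, n = 5 each), against 41.1 ± 4.09 CPM in XX WT (n = 3), and neither difference was called (adjusted p = 0.073 and 0.0542). With the length trend removed both were called (0.68 and 0.66, adjusted p = 0.0156 and 0.0253). Without replicate 3, the 3bp-12bp-del-hom value was 0.68 ± 0.09 and called (adjusted p = 0.000427), and without replicate 1 the 1bp-ins-hom value was 0.47 ± 0.15 and called (adjusted p = 0.0461). Gli3 was called lower in XX 1bp-ins-hom, where it had 64.1, 60.1, 61.9, 66.5 and 53.7 CPM, against 81.7, 81.9 and 74.7 CPM in XX WT (-0.35 ± 0.08, adjusted p = 0.00851). Its transcripts are among the longest, at the 97.8th percentile, and long genes as a whole had lower fold changes in that comparison (Spearman rho -0.387 over 15652 genes). With this length trend removed, the Gli3 value was 0.04 (adjusted p = 0.728). In XX 3bp-del-hom Gli3 was not called (-0.25 ± 0.12, adjusted p = 0.112) unless replicate 4, the library with mesonephros markers, was left out (-0.31 ± 0.08, adjusted p = 0.00551). There limma on log2(TPM + 1) called it lower (-0.51, adjusted p = 0.0108), and with the length trend removed it was called higher (0.22, adjusted p = 0.0433).

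Counted together, XX 1bp-ins-hom had 2 of the 7 genes called higher and 1 lower, where 17.2% of 16040 genes were called higher and 15.1% lower. XX 3bp-del-hom had 3 higher and 1 lower, where 21.6% of 16031 genes were called higher and 23.1% lower. XX 3bp-12bp-del-hom had 2 higher and 1 lower, where 14.6% of 15957 genes were called higher and 11.0% lower. With 7 genes, these counts are too few to set apart from that background. The median log2 fold change over the 7 genes was 0.93, -0.04 and 0.56 in the 3 genotypes, against 0.00, -0.03 and 0.00 over all genes tested.

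**Figure D2:**
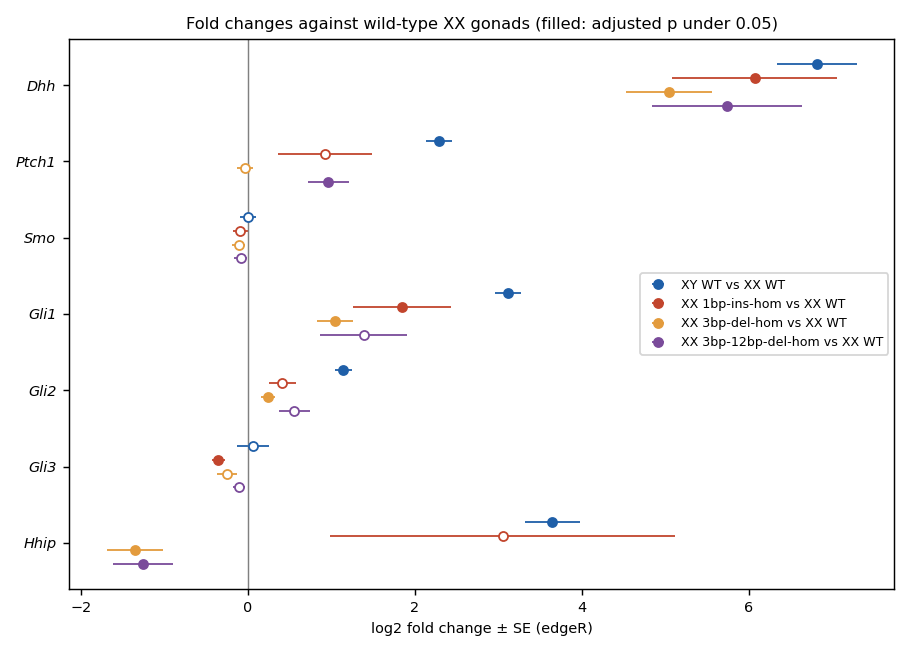
Log2 fold changes with SE bars (edgeR) of the 7 genes in wild-type XY and in the 3 XX homozygous genotypes, each against wild-type XX; filled points had an adjusted p under 0.05. Dhh lies between 5.04 and 6.81 in all 4 comparisons, while Hhip is at 3.64 in XY and at -1.35 and -1.25 in 2 of the XX genotypes.

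How far each gene had travelled can be read on the wild-type scale, with the XX WT mean of log2 CPM set to 0% and the XY WT mean to 100%. The XY WT mean keeps replicate 3, whose Dhh was 74.9 CPM, against 168 and 199 CPM in its fellows. Over the XY mutant libraries Dhh stood at 104 to 117% of this scale, which was not drawn without replicate 3. Dhh reached 53.1 to 110% over the 15 XX homozygous libraries, with medians of 82.1% in 1bp-ins-hom, 71.6% in 3bp-del-hom and 84.0% in 3bp-12bp-del-hom. Gli1 had medians of 45.7, 31.8 and 47.0% in the same genotypes, and Gli2 had 24, 23.5 and 51.9%. Ptch1 had medians of 11.8% in 1bp-ins-hom, -4.31% in 3bp-del-hom and 50.2% in 3bp-12bp-del-hom. Hhip had medians of -43.6, -37.5 and -44.7%, so that it lay on the far side of XX WT. XX 1bp-ins-hom replicate 5 was at 110% for Dhh, 96.0% for Gli1, 95.3% for Ptch1, 68.8% for Gli2 and 149% for Hhip. In that library Gli2, at 70.9 CPM, lay under the 82.5 to 96.0 CPM of XY WT, and Hhip lay above the 17.7 to 42.3 CPM of XY WT.

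**Figure D3:**
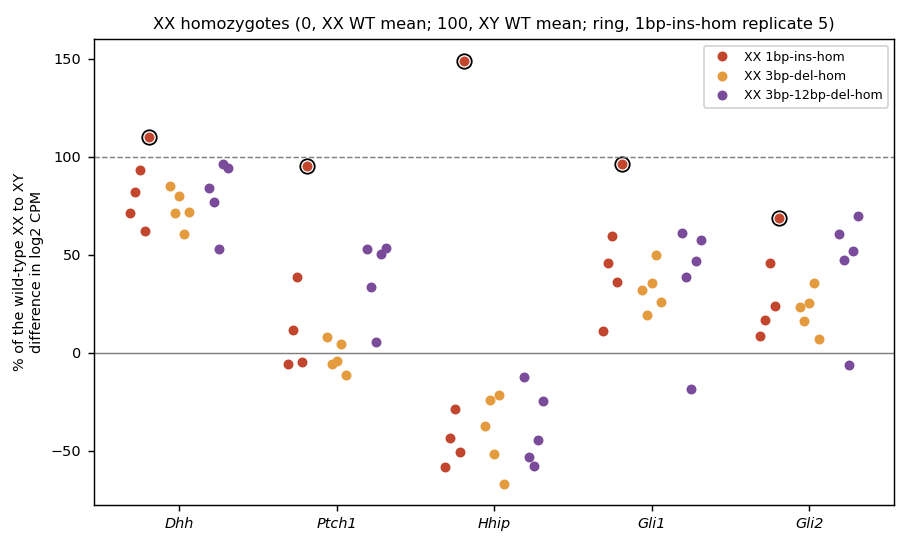
Position of each of the 15 XX homozygous libraries between the wild-type XX mean (0%) and the wild-type XY mean (100%) in log2 CPM, for the 5 genes that differed between the wild types; the ring marks XX 1bp-ins-hom replicate 5. Dhh sits at 53.1% or higher in every library, while Hhip is below 0% in all but the ringed one.

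Set against wild-type testes, Ptch1, Gli1 and Hhip were lower in XX 3bp-del-hom and XX 3bp-12bp-del-hom, while in XX 1bp-ins-hom 0 of the 7 genes were called. The mean of Dhh was 58.8% of the XY WT mean in XX 1bp-ins-hom and 46.7% in XX 3bp-12bp-del-hom. All such shares keep XY WT replicate 3, the lowest in Dhh, and were not computed without it. XX 3bp-del-hom averaged 43.1 ± 18 CPM of Dhh, 29.3% of the XY WT mean, and was lower by 1.76 on the log2 scale (log2 fold change -1.76 ± 0.40, adjusted p = 0.0215), a call lost without mutant replicate 5 or XY WT replicate 1 (adjusted p = 0.053 and 0.0803). It was also lower for Ptch1 (-2.32 ± 0.14, adjusted p = 4.07e-05), Gli1 (-2.07 ± 0.18, adjusted p = 0.000223), Gli2 (-0.89 ± 0.08, adjusted p = 0.000356) and Hhip (-4.99 ± 0.39, adjusted p = 0.000223). That made 5 of 7 genes lower and 0 higher, where 8.99% of 15899 genes were called lower and 8.60% higher. XX 3bp-12bp-del-hom averaged 68.9 ± 40.7 CPM of Dhh, against 147 ± 64.6 CPM in XY WT, and did not differ beyond the spread (-1.10 ± 0.56, adjusted p = 0.322). There 3 genes were lower, Ptch1 (-1.36 ± 0.24, adjusted p = 0.0163), Gli1 (-1.76 ± 0.42, adjusted p = 0.0451) and Hhip (-4.94 ± 0.41, adjusted p = 0.00104), and 0 higher, where 2.21% of 15815 genes were called lower and 3.39% higher. The Ptch1 call was lost without mutant replicate 2 or XY WT replicate 1 (adjusted p = 0.0512 and 0.0601), and the Gli1 call without mutant replicate 1, 2, 4 or 5 or any 1 XY WT library (adjusted p = 0.0599 to 0.11) or with no expression filter (adjusted p = 0.0978). Gli2 was not called (-0.62 ± 0.17, adjusted p = 0.0742) unless mutant replicate 3 was left out (-0.49 ± 0.09, adjusted p = 0.0274).

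XX 1bp-ins-hom had 0 genes called against XY WT, where 0.126% of 15916 genes were called in either direction. At an unadjusted p under 0.05, 4 of the 7 passed, and DESeq2 called 1, Gli2. Without replicate 5, 4 were called lower: Ptch1 (-2.01 ± 0.26, adjusted p = 0.0099), Gli1 (-1.84 ± 0.29, adjusted p = 0.0178), Gli2 (-0.87 ± 0.12, adjusted p = 0.00939) and Hhip (-5.25 ± 0.36, adjusted p = 0.00118). Dhh was then at -1.43 ± 0.50 (adjusted p = 0.175).

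Between the sexes within a mutant genotype, 5 genes were called higher in XY in 3bp-del-hom, 2 in 3bp-12bp-del-hom and 1 in 1bp-ins-hom. XY 3bp-del-hom had 213, 265, 257, 250 and 241 CPM of Dhh, all above the XX 3bp-del-hom libraries (2.48 ± 0.27, adjusted p = 0.000123). Ptch1 (2.37 ± 0.11, adjusted p = 1.84e-07), Gli1 (2.0 ± 0.15, adjusted p = 4.27e-06), Gli2 (0.83 ± 0.07, adjusted p = 3.32e-06) and Hhip (5.71 ± 0.43, adjusted p = 1.22e-05) were higher in XY as well. These 5 genes were called higher and 0 lower, where 16.7% of 15807 genes were called higher and 15.1% lower, and no single library left out changed a call. XY 3bp-12bp-del-hom was higher than its XX counterpart in Ptch1 (1.64 ± 0.27, adjusted p = 0.0151) and Hhip (5.17 ± 1.10, adjusted p = 0.0352), 2 genes higher and 0 lower, where 5.28% of 15751 genes were called higher and 5.14% lower. The Hhip call was lost without any 1 of the 5 XX libraries (adjusted p = 0.0591 to 0.0887) or with no expression filter (adjusted p = 0.0524), and the Ptch1 call without XY replicate 3 (adjusted p = 0.0606). Without XX replicate 3, Dhh (1.56 ± 0.33, adjusted p = 0.0407), Gli1 (1.28 ± 0.25, adjusted p = 0.0267) and Gli2 (0.40 ± 0.08, adjusted p = 0.0148) were called too.

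XY 1bp-ins-hom was higher than XX 1bp-ins-hom in Gli2 (0.52 ± 0.11, adjusted p = 0.017), 1 gene higher and 0 lower, where 3.54% of 15528 genes were called higher and 6.40% lower. Without XX replicate 5, Dhh (1.97 ± 0.40, adjusted p = 0.00989), Ptch1 (1.74 ± 0.22, adjusted p = 0.000709), Gli1 (1.66 ± 0.25, adjusted p = 0.00163) and Hhip (5.74 ± 0.45, adjusted p = 5.9e-05) were called higher in XY as well.

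With a single mutant allele, Dhh was not called higher in XX gonads. Dhh had 2.55, 2.14 and 1.13 CPM in XX 1bp-ins-het and 1.70, 1.57 and 1.65 CPM in XX 3bp-del-het, against 1.71, 1.23 and 0.933 CPM in XX WT, and all 3 groups overlapped (log2 fold changes 0.57 ± 0.36 and 0.31 ± 0.28, adjusted p = 0.718 and 0.519). XX 1bp-ins-het had 0 of the 7 genes called, where 0% of 15694 genes were called in either direction. There 1 of the 7 passed an unadjusted p under 0.05 and DESeq2 called 0 of them, while over all genes 1251 passed an unadjusted p under 0.05 and DESeq2 called 87. XX 3bp-del-het had 0 genes called higher and 2 lower, Ptch1 with 33.5, 34.1 and 39.5 CPM (-0.45 ± 0.08, adjusted p = 0.0146) and Gli3 with 59.7, 59.5 and 68.8 CPM (-0.37 ± 0.07, adjusted p = 0.0207), where 4.78% of 15742 genes were called higher and 6.15% lower. Both are long transcripts, and with the length trend removed neither was called (-0.19 and -0.07, adjusted p = 0.233 and 0.611), nor in 1 fit over all 12 groups (adjusted p = 0.503 and 0.102). The Ptch1 call was lost without mutant replicate 1 or XX WT replicate 2 (adjusted p = 0.0503 and 0.0736), and the Gli3 call without mutant replicate 1 or 2 or XX WT replicate 1 or 2 (adjusted p = 0.0528 to 0.106).

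Measured against their own heterozygotes, XX homozygotes again had far more Dhh. In XX 3bp-del-hom, Dhh (4.75 ± 0.48, adjusted p = 0.000693), Gli1 (1.5 ± 0.27, adjusted p = 0.0039), Gli2 (0.51 ± 0.10, adjusted p = 0.00374) and Ptch1 (0.42 ± 0.10, adjusted p = 0.0131) were higher, and Hhip (-1.40 ± 0.39, adjusted p = 0.0219) and Smo (-0.22 ± 0.07, adjusted p = 0.0325) were lower. These 4 genes higher and 2 lower compare with 14.0% of 15979 genes called higher and 13.1% lower. Hhip overlapped between the groups, at up to 1.36 CPM in homozygotes and from 1.36 CPM in heterozygotes, and its call was lost without heterozygote replicate 1 or 3 or homozygote replicate 3 (adjusted p = 0.0516 to 0.102) or in 1 fit over all 12 groups (adjusted p = 0.49). The Smo call was lost without heterozygote replicate 1 or 3 or homozygote replicate 1, 3 or 5 (adjusted p = 0.05 to 0.171) or with the length trend removed (adjusted p = 0.138). The Ptch1 call was lost without heterozygote replicate 1 (adjusted p = 0.0556), in 1 fit over all 12 groups (adjusted p = 0.37) and with limma (adjusted p = 0.0667). In XX 1bp-ins-hom, Dhh (5.5 ± 0.97, adjusted p = 0.0129) and Gli2 (0.57 ± 0.16, adjusted p = 0.0412) were higher and 0 lower, where 8.49% of 15933 genes were called higher and 8.76% lower. The Dhh call was lost without heterozygote replicate 2 or 3 (adjusted p = 0.0629 and 0.0642), and the Gli2 call without any 1 heterozygote or without homozygote replicate 2 or 3 (adjusted p = 0.0531 to 0.138) or with limma (adjusted p = 0.122). Without homozygote replicate 5, Gli1 was called higher (1.51 ± 0.38, adjusted p = 0.0321) and Hhip lower (-1.93 ± 0.28, adjusted p = 0.00284), and without replicate 1 Gli1 was called higher (2.27 ± 0.53, adjusted p = 0.0342).

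The 3 homozygous XX genotypes differed from each other in 1 gene. XX 3bp-12bp-del-hom against XX 3bp-del-hom had 1 gene higher, Ptch1 as given above, and 0 lower, where 14.9% of 15605 genes were called higher and 13.0% lower. In the same comparison Gli2 was called without replicate 3 of 3bp-12bp-del-hom (0.41 ± 0.07, adjusted p = 0.00187) and Gli3 without replicate 4 of 3bp-del-hom (0.21 ± 0.08, adjusted p = 0.046). With the length trend removed Gli3 was instead called lower there (-0.19, adjusted p = 0.0394). XX 3bp-12bp-del-hom against XX 1bp-ins-hom had 0 called, where 4.33% of 15619 genes were called in either direction; 2 passed an unadjusted p under 0.05 and DESeq2 called 1, Gli3. XX 1bp-ins-hom against XX 3bp-del-hom had 0 called, where 0.128% of 15653 genes were called in either direction; 1 passed an unadjusted p under 0.05 and DESeq2 called 0.

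In XY gonads none of the 7 genes was called in any mutant against XY WT. Dhh had 246, 215, 240, 163 and 225 CPM in XY 1bp-ins-hom, 226, 224 and 293 CPM in XY 3bp-12bp-del-hom, 235, 262 and 241 CPM in XY 1bp-ins-het and 187, 176 and 218 CPM in XY 3bp-del-het. Every XY mutant mean was above the XY WT mean of 147 CPM, which rests on the low replicate 3, and no difference was called. The log2 fold changes of Dhh ran from 0.37 in 3bp-del-het to 0.73 in 3bp-12bp-del-hom, and without XY WT replicate 3 from 0.07 to 0.42. The mutants share these 3 XY WT libraries, as the XX mutants share XX WT. The background was 0% of 15693 genes in 1bp-ins-hom, 0% of 15812 in 3bp-del-hom, 0.0130% of 15390 in 3bp-12bp-del-hom, 0% of 15336 in 1bp-ins-het and 0% of 15261 in 3bp-del-het, all in either direction. At an unadjusted p under 0.05, 2 of the 7 passed in XY 1bp-ins-hom and 2 in XY 3bp-del-hom, and 0 in the other XY comparisons, and DESeq2 called 0 in all 5. Over all genes, an unadjusted p under 0.05 was reached by 2232 in XY 1bp-ins-hom, 1722 in XY 3bp-del-hom, 943 in XY 1bp-ins-het and 740 in XY 3bp-del-het, and DESeq2 called 123, 179, 27 and 25 in the same order.

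The difference in effect between the sexes was tested as an interaction, the log2 change of a homozygote from wild type in XX minus that in XY. For Dhh it was 5.51 ± 0.90 in 1bp-ins-hom (adjusted p = 0.00713), 4.34 ± 0.54 in 3bp-del-hom (adjusted p = 0.00103) and 5.01 ± 0.86 in 3bp-12bp-del-hom (adjusted p = 0.027). The last was lost in 8 of its 14 fits with 1 library left out (adjusted p up to 0.0939), namely without any 1 of XX WT, any 1 of XY 3bp-12bp-del-hom, or XY WT replicate 1 or 2, and also with no expression filter (adjusted p = 0.0621) and with limma (adjusted p = 0.0873). For Gli1 the interaction was called in 3bp-del-hom (1.12 ± 0.24, adjusted p = 0.0168), and not without XX WT replicate 3 (0.98 ± 0.24, adjusted p = 0.0591), in 1 fit over all 12 groups (adjusted p = 0.157) or with limma (adjusted p = 0.0824). That gave 1 gene higher and 0 lower in 1bp-ins-hom, where 0.834% of 16422 genes were called higher and 0.207% lower, and 2 higher and 0 lower in 3bp-del-hom, where 2.07% of 16483 genes were called higher and 1.75% lower. In 3bp-12bp-del-hom it gave 1 higher and 0 lower, where 0.492% of 16259 genes were called higher and 0.105% lower. Some genes not called were called without 1 library: in 1bp-ins-hom Gli1 without XX replicate 1 (2.22 ± 0.47, adjusted p = 0.0356). In 3bp-12bp-del-hom they were Gli1 (1.87 ± 0.32, adjusted p = 0.0135) and Gli2 (0.77 ± 0.14, adjusted p = 0.0149) without XX replicate 3. In 3bp-del-hom Hhip was called lower without XY mutant replicate 2 or 4 or XY WT replicate 3 (adjusted p = 0.0398 to 0.049).

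Library by library, Ptch1 was higher where Dhh was higher among the XX homozygotes. Over the 15 XX homozygous libraries, log2 CPM of Dhh and Ptch1 had a Pearson r of 0.81 (permutation p = 0.0002, adjusted p = 0.0012 over 6 relations) and a Spearman rho of 0.77 (permutation p = 0.0013, adjusted p = 0.0078). Without the 2 libraries farthest from the median of Dhh, which were 1bp-ins-hom replicate 5 and 3bp-12bp-del-hom replicate 3, r was 0.76 (permutation p = 0.00305, adjusted p = 0.0183). For Gli1 r was 0.79 (permutation p = 0.00056, adjusted p = 0.00168) and rho 0.67 (permutation p = 0.00768, adjusted p = 0.023), and without those libraries r was 0.51 (permutation p = 0.0738, adjusted p = 0.142), so the relation rests on them. For Hhip r was 0.62 (permutation p = 0.00841, adjusted p = 0.0168) and rho 0.45 (permutation p = 0.094, adjusted p = 0.113), and r was 0.23 without those libraries (permutation p = 0.437, adjusted p = 0.437), so it too rests on them. These values pool 3 genotypes. With each library taken as its deviation from its group mean, r was 0.85 for Ptch1 (permutation p = 2e-05, adjusted p = 0.00012), 0.78 for Gli1 (permutation p = 0.00056, adjusted p = 0.00168) and 0.60 for Hhip (permutation p = 0.0144, adjusted p = 0.0289). The deviations include the 2 libraries left out above and were not tested without them. The summed Sertoli markers ranged from 330 to 1930 TPM over the same libraries, and their part in these relations was not tested.

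Over the 22 XY libraries, where Dhh was high throughout, none of the 3 relations passed: r was 0.13 for Gli1 (permutation p = 0.527, adjusted p = 0.527), 0.29 for Ptch1 (permutation p = 0.197, adjusted p = 0.296) and 0.24 for Hhip (permutation p = 0.274, adjusted p = 0.329). The Spearman rho values were 0.47, 0.40 and 0.33 in the same order (adjusted p = 0.0566, 0.102 and 0.134, permutation tests). Without XY WT replicate 3 and XY 1bp-ins-hom replicate 4, the r values were 0.41, 0.39 and 0.31 (adjusted p = 0.142, 0.142 and 0.215, permutation tests).

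**Figure D4:**
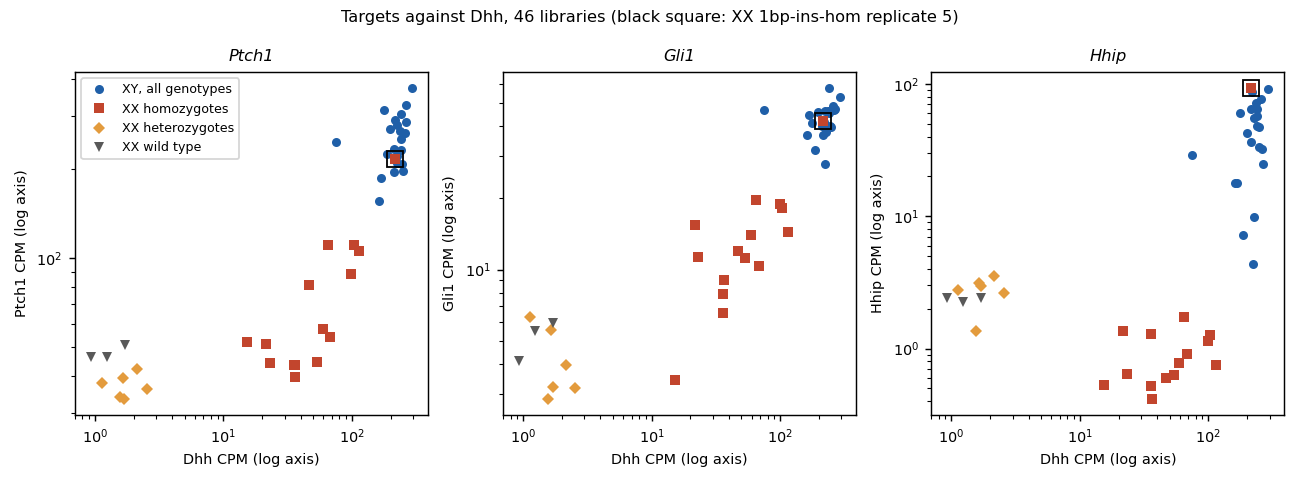
Ptch1, Gli1 and Hhip against Dhh in CPM (log axes) in 46 libraries, with XY, XX homozygous, XX heterozygous and XX wild-type libraries as separate symbols and XX 1bp-ins-hom replicate 5 in a black square. XX homozygotes with Dhh at 99.0 to 114 CPM have Ptch1 at 88.3 to 111 CPM and Gli1 at 14.4 to 18.9 CPM, but Hhip at 0.754 to 1.26 CPM.

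Hhip also varied widely among XY libraries, and 3 of them with low Hhip had little Cyp17a1, the enzyme of androgen synthesis that marks fetal Leydig cells. In XY 3bp-12bp-del-hom it had 9.78, 4.38 and 92.3 CPM, and in XY 3bp-del-het 7.23, 60.8 and 87.5 CPM, while Dhh in these 6 libraries lay between 176 and 293 CPM. The low libraries, replicates 1 and 2 of the homozygotes and replicate 1 of the heterozygotes, were among the 4 XY libraries with the least Cyp17a1. It was at 0.588, 0.416 and 0.514 CPM in them, against 6.9 CPM in homozygote replicate 3 and 1.96 and 12.2 CPM in the other heterozygotes. The fourth was XY WT replicate 3, with 0.566 CPM of Cyp17a1 and yet 29.1 CPM of Hhip. The summed fetal Leydig list was at 381 and 399 TPM in the low homozygotes, against 516 TPM in homozygote replicate 3, and at 381 TPM in the low heterozygote, against 389 and 510 TPM in the other heterozygotes. Cyp17a1 itself reached at most 20.4 TPM in any XY library, so it made up little of these sums. In XX WT Cyp17a1 was at 0.958, 0.913 and 1.34 CPM. XX 1bp-ins-hom replicate 5, with Hhip at 93.9 CPM, had 63 CPM of Cyp17a1 and 17.1 CPM of Insl3, a Leydig cell hormone, against 0.607 to 0.819 CPM and 0.195 to 0.469 CPM in its 4 fellows. The other 14 XX homozygous libraries had at most 1.18 CPM of Cyp17a1. Cyp17a1 and Insl3 were singled out after their values were seen. Whether the markers have a part in the Hhip values was not tested.

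**Figure D5:**
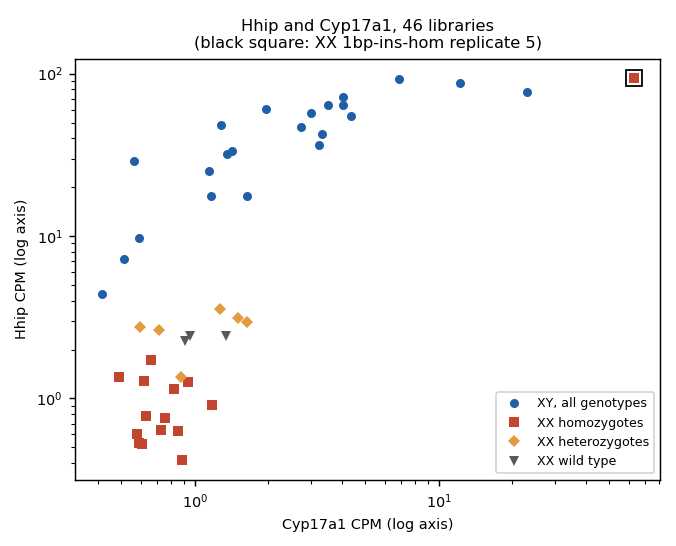
Hhip against Cyp17a1 in CPM (log axes) in 46 libraries, with symbols as in the plot of targets against Dhh. XY libraries with Hhip at 4.38 to 9.78 CPM have Cyp17a1 at 0.416 to 0.588 CPM, and the 1 XX library in the upper right, in the black square, has 93.9 CPM of Hhip and 63 CPM of Cyp17a1.

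The 10 fetal Leydig markers had a summed level of 442, 389 and 236 TPM in XY WT, against 211, 227 and 257 TPM in XX WT. The lowest XY value was in replicate 3, the library with mesonephros markers, and it overlapped XX WT. The other 19 XY libraries had 316 to 578 TPM. The 6 XX heterozygous libraries had 226 to 244 TPM. In XX WT most of the sum came from Nr5a1, Scarb1 and Fdx1. The other genes of the list had medians of 0.93 to 5.88 TPM over the 9 XX wild-type and heterozygous libraries. Over the 22 XY libraries their medians were 0.345 to 9.66 TPM, apart from Ren1 at 75.4 TPM. In XY WT against XX WT 1 of the 10 was called higher, Ren1 (5.5 ± 0.45, adjusted p = 0.000947), and 2 lower, Lhcgr (-2.17 ± 0.46, adjusted p = 0.0269) and Cyp11a1 (-1.05 ± 0.23, adjusted p = 0.0296). Their median log2 fold change was 0.66, against 0.00 over all genes tested. In XX 1bp-ins-hom 3 were called higher and 0 lower, and in XX 3bp-del-hom and XX 3bp-12bp-del-hom 5 higher and 1 lower, Lhcgr, with medians of 1.03, 0.53 and 0.71. Over all genes 17.2, 21.6 and 14.6% were called higher and 15.1, 23.1 and 11.0% lower. The list did not move as 1. Medians of Ren1 (9.08 against 1.25 CPM), Star, Hsd3b1 and Insl3 were higher in XX homozygotes than in the other XX libraries. Those of Cyp17a1 (0.724 against 0.958 CPM), Cyp11a1 (5.43 against 6.54 CPM) and Lhcgr were lower. Of the 15 Sertoli markers, 12 were called higher in XY WT, where 5.10% of all genes were, and 14, 14 and 13 in the 3 XX homozygotes in the same order. Schwann cells of nerves are another known source of Dhh. The summed level of 6 Schwann markers had medians of 17.6, 16.6 and 20.3 TPM in the XX homozygotes, against 18.5 TPM in XX WT, and 0 were called higher in any of the 3 genotypes. The highest XX WT sum, 23.6 TPM, was in replicate 1, the library with adrenal markers. Single markers went both ways. Erbb3 had a median of 22.9 CPM in XX homozygotes, against 8.13 CPM in the other XX libraries, and Gfra3 10.3 against 14.2 CPM. Whether Schwann cells add to the Dhh level was not tested.

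Seen per transcript length, the pathway's parts stand at different levels. Over the 15 XX homozygous libraries, the level of Dhh had a median of 19.1 TPM, against 0.6 TPM in the 9 XX wild-type and heterozygous libraries, and 81.4 TPM in the 22 XY libraries. Smo had the highest median of the 7 in each class, with medians of 94.1 TPM in XX homozygotes and 111 TPM in the other XX libraries, and 99.6 TPM in XY. Gli3 had medians of 12.2, 14.6 and 12.6 TPM in the same 3 classes. Hhip had 0.19, 0.52 and 10.9 TPM. In the order of group means of CPM, all 6 XY groups came first for Dhh, Ptch1, Gli1, Gli2 and Hhip, followed by the 3 XX homozygous groups for Dhh, Gli1 and Gli2. Among XY groups, neighbours in the order overlapped in their libraries for Dhh, Ptch1, Gli1 and Hhip. For Dhh the break without overlap was between XX 3bp-del-hom, at 21.6 CPM or more, and XX 1bp-ins-het, at 2.55 CPM or less. For Ptch1 it was between XY 1bp-ins-hom (155 CPM or more) and XX 3bp-12bp-del-hom (111 CPM or less), although XX 1bp-ins-hom replicate 5 reached 216 CPM.

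The other Hedgehog ligands were near absent. Shh had a median of 0.134 CPM in XX homozygotes, 0.124 CPM in the other XX libraries and 0.169 CPM in XY, and Ihh 0.0803, 0.0623 and 0.0903 CPM in the same classes. The exceptions were XY 3bp-del-het replicate 2, with 55.1 CPM of Shh, and XY 3bp-del-hom replicate 1, with 2.77 CPM of Ihh. In that Shh-rich library Ptch1 was at 315 CPM, Gli1 at 40.9 CPM and Hhip at 60.8 CPM, against 225 and 292, 31.8 and 41.7, and 7.23 and 87.5 CPM in its 2 fellows, so that of these 3 Ptch1 alone was the highest of the group. Shh passed the expression filter in 1 of the comparisons of mutants with their wild type, XY 3bp-del-het, where it was not called (4.69 ± 2.14, adjusted p = 0.836), and Ihh in 0.

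Of 22 further genes of the pathway, 20 were tested between the wild types. Boc, a co-receptor that helps ligand reach Ptch1 (-0.90 ± 0.21, adjusted p = 0.0421), and Disp1, which releases ligand from the sending cell (-0.71 ± 0.14, adjusted p = 0.0233), were lower in XY. Scube1 (0.81 ± 0.16, adjusted p = 0.0209) and Scube2 (1.24 ± 0.24, adjusted p = 0.0189), of a family of secreted proteins that helps ligand leave the cell, were higher. In XX 1bp-ins-hom 0 were higher and 9 lower of 20, in XX 3bp-del-hom 1 higher and 12 lower, and in XX 3bp-12bp-del-hom 2 higher and 6 lower, with median log2 fold changes of -0.35, -0.33 and -0.14. Over all genes the shares called were 17.2% higher and 15.1% lower, 21.6% higher and 23.1% lower, and 14.6% higher and 11.0% lower in the same order. With the length trend removed these counts were 0 and 6, 3 and 6, and 2 and 3, with medians of -0.25, -0.16 and -0.09. Cdon, another co-receptor, averaged 89.6 ± 10.7, 78.9 ± 5.75 and 117 ± 17.6 CPM in the 3 genotypes (SD, n = 5 each), against 162 ± 23.9 CPM in XX WT (n = 3), and fell in all 3 (-0.83, -1.04 and -0.45, adjusted p = 0.00162, 3.64e-05 and 0.0334). Boc fell by 0.80, 0.92 and 0.68 (log2 fold changes -0.80, -0.92 and -0.68), Disp1 had -0.72, -0.62 and -0.36, and Sufu, a brake that holds Gli proteins, -0.42, -0.43 and -0.24, all called. Of these, Boc, Disp1 and Sufu were still called lower in all 3 with the length trend removed, and Cdon in 2 of the 3. Scube1 and Scube2 rose in XX 3bp-12bp-del-hom (0.79 ± 0.16 and 1.24 ± 0.39, adjusted p = 0.0084 and 0.0417), the genotype in which Ptch1 was called higher against XX WT.

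Other calls against XX WT included Lrp2, Kif7, Evc, Evc2 and Gpr161 lower in 1bp-ins-hom, Scube3, Kif7, Stk36, Evc, Evc2, Gpr161 and Spop lower and Prkaca higher in 3bp-del-hom, and Gas1 and Gpr161 lower in 3bp-12bp-del-hom. In XX 3bp-del-het Scube3 was lower (-0.21 ± 0.05, adjusted p = 0.0406), and 0 of the list were called in XX 1bp-ins-het or in any of the 5 XY mutants against their wild type. Of 10 genes reported as Hedgehog-responsive in other tissues, 9 were tested, and 4, 5 and 4 were called higher in the 3 XX homozygotes in the order above, with 0, 0 and 1 lower, where 17.2, 21.6 and 14.6% of all genes were called higher. Cyp26b1, which breaks down retinoic acid, rose by 2.51 ± 0.39, 1.98 ± 0.20 and 2.84 ± 0.19 (adjusted p = 0.00336, 0.000145 and 0.000113), and by 3.14 ± 0.30 in XY WT (adjusted p = 0.00164). Cyp26b1 was singled out after its values were seen. Sox9 rose in the same XX libraries, and whether the rise of Cyp26b1 is a response to Hedgehog was not tested.

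The genes whose log2 CPM followed Dhh most closely over the 46 libraries, among 12327 genes, were Fzd9 and Tesc (Pearson r = 0.994 each), Gdnf and Amh (0.993 each) and Smtnl2 (0.99). Over the 24 XX libraries they were Amh (0.994), Tesc (0.992), Fzd9 (0.991), Ptk2b (0.99) and Gdnf (0.99). For Gli1 they were Olfml3 (0.977), Enc1 (0.968), Hsd11b2 (0.967), Hivep3 (0.966) and Syt15 (0.966) over 46 libraries, and Olfml3 (0.943), Hivep3 (0.936), Hsd11b2 (0.925), Rap2a (0.922) and Smoc2 (0.921) over the XX libraries. These correlations describe likeness over libraries that share sex and genotype and carry no test.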

How the data were processed

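Poly(A) RNA of E12.5 gonad pairs was sequenced in 46 libraries. The authors deposited estimated counts per gene, of which 8.0 to 8.9% of values are not whole numbers, and a matching table of TPM. The submitters' processing notes name the mm10 build. Which aligner, counter and strand setting they used was not given in the sources used here, so overlapping and antisense reads cannot be told apart. Each table has 1 column that matches no sample and was not used. Replicate numbers come from the titles.

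Counts were rounded and tested in R 4.3.3 with edgeR 4.0.16 (TMM scaling, filterByExpr, robust quasi-likelihood test, Benjamini-Hochberg adjustment over all genes, threshold 0.05), each comparison on its own groups. CPM used TMM over the 46 libraries, and log2 CPM a prior count of 2. Correlations used 100000 permutations. The procedure was tested on simulated data with the same spread setting for every gene and changes only in well-counted genes. That test does not cover genes as variable as Dhh or as low as Hhip in these libraries. Alternatives were RLE scaling, no filter, DESeq2 1.42.0, 1 fit over all 12 groups, a replicate block, limma 3.58.1 on log2(TPM + 1) with a TPM minimum of 1, and leaving out each library. Removing the trend with gene length was added after seeing the data.

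All 7 genes are reported in every comparison. Other pathway genes are named where called (1 is not reported here), Shh and Ihh always, markers by size of change (up to 4 per list), and the 5 genes most like Dhh and Gli1. These genes and lists were chosen with earlier results of these data known. Depth was 29909102 to 46150388 estimated counts per library, and intervals cover counting and replicate spread only.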

Additional observations from a re-analysis of the deposited data

Results flagged for a closer look

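Within groups of 5, a library was marked where its gap to the nearest other library was a large share of the group's range (Dixon's test, 35 tests, of which chance marks about 1 in 20). Ptch1 at 216 CPM in XX 1bp-ins-hom replicate 5 lay far above its fellows at 43.6 to 88.3 CPM. Hhip at 93.9 CPM in the same library lay far above 0.524 to 1.14 CPM. Gli2 at 72.3 CPM in XY 1bp-ins-hom replicate 4 was below the other 4 libraries of its group, the highest of which had 82.3 CPM.

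The effect of a homozygous mutation differed between the sexes by its own test, an interaction in edgeR. For Dhh the log2 change in XX minus that in XY was 5.51 in 1bp-ins-hom (adjusted p = 0.00713), 4.34 in 3bp-del-hom (adjusted p = 0.00103) and 5.01 in 3bp-12bp-del-hom (adjusted p = 0.027). The last was lost in 8 of 14 fits with 1 library left out. For Gli1 it was 1.12 in 3bp-del-hom (adjusted p = 0.0168), and 0.98 without XX WT replicate 3 (adjusted p = 0.0591).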

How the results depend on the processing

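Counts of the 7 genes called changed with the test. One fit over all 12 groups called 6 in XX 1bp-ins-hom against XX WT, 2 in XX 3bp-del-hom, 0 in XX 3bp-del-het, 1 each in XY 1bp-ins-hom and XY 3bp-del-hom against XY WT, and 4 in XX 1bp-ins-hom against XY WT. It called 4 in XX 1bp-ins-hom against its heterozygotes, 4 and 5 in XY against XX 1bp-ins-hom and 3bp-12bp-del-hom, 1 in XX 3bp-12bp-del-hom against XX 1bp-ins-hom, and 3 and 1 in the interactions of 1bp-ins-hom and 3bp-del-hom. DESeq2 called 5 in XX 3bp-12bp-del-hom against XX WT, 1 in XX 1bp-ins-hom against XY WT, 5 in XY against XX 3bp-12bp-del-hom, 1 in XX 3bp-12bp-del-hom against XX 1bp-ins-hom and 3 in the 1bp-ins-hom interaction. On log2(TPM + 1), limma called 1 in XX 1bp-ins-hom against its heterozygotes, 3 in XY against XX 1bp-ins-hom, 2 and 1 in XX 3bp-12bp-del-hom against XX 3bp-del-hom and XX 1bp-ins-hom, and 1 and 0 in the 3bp-del-hom and 3bp-12bp-del-hom interactions. With no expression filter 1 was called in XY against XX 3bp-12bp-del-hom and 0 in the interaction. Removing the length trend, chosen after seeing the data, called 0 in XX 3bp-del-het, 2 in XX 3bp-12bp-del-hom against XX 3bp-del-hom and 4 in the 3bp-del-hom interaction. The cause of these shifts was not tested. Without the length trend Gli3 was at 0.042 in XX 1bp-ins-hom and 0.22 (called higher) in XX 3bp-del-hom against XX WT, Ptch1 was at 0.40 in XX 3bp-del-hom against XX WT, and Gli3 at -0.19 (called lower) in XX 3bp-12bp-del-hom against XX 3bp-del-hom. Limma put Gli2 at -0.07 in XX 3bp-del-hom against XX WT, where its median over all genes was -0.21.

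Replicate numbers gave no steady sign of pairing: in 0 comparisons did every pair's deviations from the group means correlate above 0.1. Single pairs varied widely, from -0.237 to 0.668 in XY against XX 1bp-ins-hom. With 3 to 5 libraries per group, this check cannot exclude pairing. With a replicate block, 1 gene was called in XX 3bp-12bp-del-hom and 0 in XX 3bp-del-het against XX WT, 4 in XX 1bp-ins-hom against its heterozygotes, 0 in XY against XX 3bp-12bp-del-hom and 0 in the 3bp-12bp-del-hom interaction. The block also ended the calls of Gli1 in XX 1bp-ins-hom against XX WT (adjusted p = 0.0949), of Ptch1 and Gli1 in XX 3bp-12bp-del-hom against XY WT (adjusted p = 0.0535 and 0.119), of Dhh in XX 3bp-del-hom against XY WT (adjusted p = 0.135), and of Hhip and Smo in XX 3bp-del-hom against its heterozygotes (adjusted p = 0.0553 and 0.111). It called Dhh lower in XX 3bp-12bp-del-hom against XY WT (-1.92, adjusted p = 0.0155) and Gli3 lower in XX 3bp-del-hom against XX WT (-0.35, adjusted p = 0.00138). Under the block Hhip was at -1.53 in XX 1bp-ins-hom against XX WT and -1.86 against heterozygotes.

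With 1 library left out, the number called was 2 to 4, 3 to 5 and 1 to 5 in XX 1bp-ins-hom, 3bp-del-hom and 3bp-12bp-del-hom against XX WT, and 0 to 2 in XX 3bp-del-het. Against XY WT it was 0 to 4, 4 to 5 and 1 to 4. Against heterozygotes it was 0 to 4 and 3 to 6 in 1bp-ins-hom and 3bp-del-hom, and in XY against XX 1 to 5, 5 to 5 and 1 to 4. It was 1 to 2 in XX 3bp-12bp-del-hom against XX 3bp-del-hom, and 1 to 2, 1 to 3 and 0 to 3 in the interactions. Hhip in XX 1bp-ins-hom lay between -1.58 and 3.36 against XX WT, and between -1.93 and 3.02 against heterozygotes, lowest without replicate 5. Without the 2 libraries farthest from the median of Dhh, r with Dhh over XX homozygotes was 0.51 for Gli1 and 0.23 for Hhip.

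Counts over all genes moved too. XY WT against XX WT had 1738 genes called, 1088 with the block and 5044 in 1 fit. Against XX WT, XX 1bp-ins-hom had 5186 and 3325 without the length trend, XX 3bp-12bp-del-hom 4088 and 1217 with the block, and XX 3bp-del-het 1721, 422 without the length trend and 2657 with DESeq2. XX 1bp-ins-het had 0 and XY 1bp-ins-het 0, against 87 and 27 with DESeq2. In 1 fit XY 1bp-ins-hom, 3bp-del-hom and 3bp-del-het had 802, 653 and 188 in place of 0, and XY 3bp-12bp-del-hom 210 in place of 2. Against XY WT, XX 1bp-ins-hom had 20 (1 with the block, 1960 in 1 fit), 3bp-del-hom 2797 (596 and 4887) and 3bp-12bp-del-hom 886 (267 and 2289). XY against XX had 1544 (2487 with DESeq2) in 1bp-ins-hom and 1641 (1035 with the block, 2502 with DESeq2) in 3bp-12bp-del-hom. Between XX homozygotes, 3bp-12bp-del-hom had 4360 against 3bp-del-hom (2472 without the length trend) and 677 against 1bp-ins-hom (33 and 1772 with limma), and 1bp-ins-hom against 3bp-del-hom 20 (3 with the block, 260 with DESeq2). The interactions had 171, 631 and 97 (512, 1954 and 437 in 1 fit, 133, 398 and 11 with the block).

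Limits are the 3 to 5 libraries per group, whole gonads in which fewer cells and less RNA per cell cannot be told apart, and estimated counts without strand. Of 2752 alternative values of the 7 genes, 110 changed sign without being called.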
